A study of Mus musculus with 12 samples.

Results

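The 5 subunits of the transcription factor NF-kB and 5 genes that NF-kB induces and that feed back on it were followed across mouse endometrial epithelial organoids with and without the estrogen receptor alpha gene Esr1. The members were taken by symbol: the subunit genes Rela, Nfkb1, Nfkb2, Relb and Rel, and the feedback genes Nfkbia, Nfkbiz, Bcl3, Tnfaip3 and Birc3. All 10 were among the 26264 genes listed in the count files and among the 16465 genes with enough reads to be tested. Endometrial epithelial organoids are cultures grown in a gel from sheets of uterine lining. Bulk RNA was sequenced from 12 libraries, 6 of wild type (WT) and 6 of Esr1 knockout (KO) organoids. In each genotype 3 libraries had no estrogen and 3 had estrogen, which gives 4 groups.

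The labels give the genotypes only as wild type and Esr1 knockout. They do not say how or in which cells the gene was deleted, or which organoid lines and animals gave these libraries. Per the growth protocol all organoids were kept in expansion medium and used at the third passage, and epithelium was taken at several postnatal ages, with no age tied to a library. They name estrogen without a dose, a compound or a time, and a note among them states that organoids of neither genotype responded to it. They do not say whether the libraries that share a group are separate animals, cultures or repeats of 1 culture, so p-values measure only the spread between these libraries, which may be technical.

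NF-kB proteins bind DNA as pairs of subunits. RelA, RelB and c-Rel carry an activation domain, while p50 and p52, made from the Nfkb1 and Nfkb2 products, lack one. Inhibitors of the IkB family hold the pairs in the cytoplasm until signals from receptors for tumor necrosis factor, interleukin-1 or microbial products lead IkB kinases to mark them for degradation. The freed pairs then switch on chemokines, adhesion molecules and survival genes, and also new IkB and other brakes that end the signal. In mucosal epithelia the pathway is known for barrier defence and for signals to immune cells.

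Levels are given as CPM, a gene's reads per 1000000 counted reads after scaling by the trimmed mean of M values. Counted reads ran from 75654191 to 108665407 per library, which put at least 1849 reads over a group behind each member's level. Esr1, the deleted gene, averaged 308 ± 50.2 CPM (SD, n = 3) in untreated and 318 ± 33.5 in treated WT, against 16.4 ± 0.402 and 19.7 ± 0.510 in KO. Its edgeR log2 fold change was -4.23 ± 0.13 (SE) without and -4.01 ± 0.13 with estrogen, with adjusted p-values of 1.34e-09 and 2.25e-09. The remaining Esr1 reads were not placed along the gene, since the files hold sums per gene. Genotype differences were the rule in these organoids: edgeR called 71.7% of tested genes between KO and WT without estrogen (37.7% higher and 34.0% lower) and 70.8% with estrogen (36.7% higher and 34.1% lower), at an adjusted p under 0.05. In both treatments with the same sign it called 64.9%.

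Against that background 9 of the 10 members were higher in KO in both treatments and Rela, which encodes RelA, was lower in both. Of all tested genes, 34.1% were called higher and 30.8% lower in both treatments. For the 9 higher members the lowest of the 6 KO libraries lay above the highest of the 6 WT libraries. For Rela all 6 KO libraries lay below all 6 WT libraries. Of tested genes, 34.0% and 31.0% were parted in these ways. KO libraries of the same number deviated together across treatments, so the 6 KO values may not be independent. At least 2-fold higher in both treatments were 8 members, all but Rela and Nfkb2, where 24.4% of tested genes were. The median log2 fold change of the members was 1.36 without and 1.57 with estrogen, and that of all tested genes was 0.04 and 0.02.

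**Figure D1:**
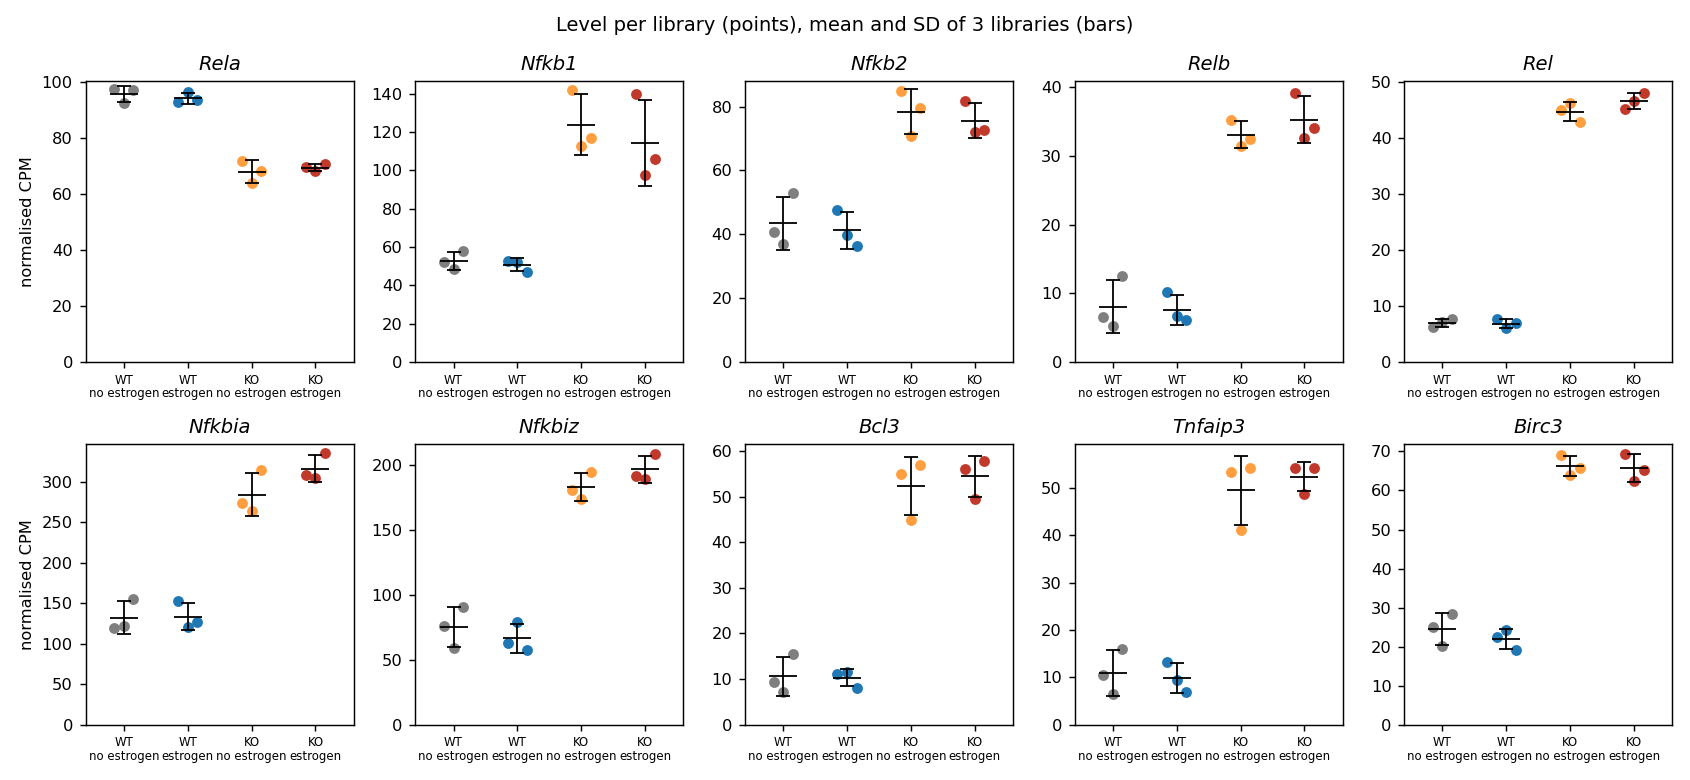
Normalised CPM (y axis, linear from 0) of the 10 members in each library of the 4 groups, with the mean and SD of 3 libraries. In 9 panels all 6 KO points stand above the 6 WT points, and for Rela, at 63.9 to 72.0 CPM in KO and 92.5 to 97.6 CPM in WT, they stand below.

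Among the subunits, Rela was the one that fell. It encodes the most widely used activating subunit and varied the least between WT libraries. The untreated WT libraries gave 97.6, 92.5 and 97.3 CPM of Rela, and the treated ones 92.8, 96.4 and 93.6 CPM. In KO the values were 72.0, 63.9 and 68.1 CPM without estrogen and 69.5, 68.1 and 70.6 CPM with it. The highest WT value was only 1.05 times the lowest, while the genotypes were apart by 1.41-fold without and 1.36-fold with estrogen. The log2 fold change of Rela was -0.49 ± 0.06 (SE; edgeR adjusted p = 1.29e-05) and -0.44 ± 0.06 (adjusted p = 3.31e-05). This difference is small enough for the scaling to bear on it. Scaled by library size alone, which moved the median of all genes up by 0.23 and 0.19, Rela was at -0.27 and -0.26 and was still called lower in edgeR (adjusted p = 0.00123 and 0.00171).

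The promoter of Rela is shown as that of the member that fell. RefSeq gives this stretch of 250 bases before the gene's start on the plus strand at chr19:5637291-5637540 (build GRCm38.p6), written 5′ to 3′:
Rela: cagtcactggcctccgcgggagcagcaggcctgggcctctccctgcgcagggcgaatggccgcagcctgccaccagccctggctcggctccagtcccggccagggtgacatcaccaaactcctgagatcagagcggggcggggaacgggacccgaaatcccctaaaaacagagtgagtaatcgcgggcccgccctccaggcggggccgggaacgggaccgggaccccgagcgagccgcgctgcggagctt

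Rel, which encodes c-Rel, a subunit best known from lymphocytes, had the largest fold change of the 10 members. Its WT libraries held 6.22, 7.15 and 7.58 CPM without estrogen and 7.62, 6.08 and 6.87 CPM with it. Its KO libraries held 45.0, 46.2 and 42.8 CPM without estrogen and 45.3, 46.6 and 48.1 CPM with it. Each genotype kept to a narrow band, and the lowest KO library was 5.62 times the highest WT library. On the log2 scale the rise of Rel was 2.68 ± 0.10 (SE; edgeR adjusted p = 4.29e-09) without and 2.77 ± 0.10 (adjusted p = 4.22e-09) with estrogen, or 6.40-fold and 6.80-fold.

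Relb encodes RelB, the partner of p52 in the non-canonical branch of the pathway. The untreated WT libraries had 6.51, 5.22 and 12.5 CPM of Relb and the treated ones 10.1, 6.62 and 6.10 CPM. The KO libraries had 35.3, 31.5 and 32.5 CPM without and 39.1, 32.6 and 34.1 CPM with estrogen. WT was the uneven genotype here, with its highest library 2.39 times its lowest, against 1.24 times in KO. The difference between genotypes was larger than this spread, at a log2 fold change of 2.04 ± 0.29 (SE; edgeR adjusted p = 8.41e-05) without and 2.21 ± 0.29 (adjusted p = 4.97e-05) with estrogen.

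The genes of the subunits that are made as precursors rose less. Nfkb1, the source of p50, went from 52.6 ± 4.76 CPM (SD, n = 3) in untreated WT to 124 ± 15.8 CPM in untreated KO, and from 50.7 ± 3.25 to 114 ± 22.6 CPM with estrogen. Its log2 fold changes were 1.23 ± 0.14 (SE; edgeR adjusted p = 1.10e-05) and 1.17 ± 0.14 (adjusted p = 1.73e-05). The KO values spread most for this subunit, since replicate 1 read 142 CPM without and 139.9 CPM with estrogen while the other KO libraries lay from 97.3 to 117 CPM. Nfkb2, the source of p52, stood at 43.4 ± 8.34 and 41.2 ± 5.80 CPM in WT and at 78.4 ± 7.11 and 75.6 ± 5.45 CPM in KO. With log2 fold changes of 0.85 ± 0.14 (edgeR adjusted p = 2.10e-04) and 0.87 ± 0.14 (adjusted p = 1.83e-04) it had the smallest rise of the 9 higher members. The spans of 2 other genes overlap that of Nfkb2 (4833438C02Rik and Psd), and reads shared between genes were not counted, so its level may lack reads.

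Divided by exon length, the subunit transcripts had another make-up in KO. CPM per kilobase of exon makes levels comparable between genes, and its sum over the 5 subunits was 62.9 ± 5.65 (SD, n = 3) without and 61.1 ± 2.88 with estrogen in WT, against 94.6 ± 7.65 and 93.4 ± 8.30 in KO. Rela made up 56.3 ± 3.80% of that sum in untreated and 56.8 ± 3.01% in treated WT, but 26.5 ± 0.688% and 27.5 ± 2.23% in KO. The share of Nfkb1 was 20.3% and 20.1% in WT and 31.7% and 29.5% in KO. In untreated KO it exceeded Rela in all 3 libraries, while in treated KO it did so only in replicate 1 (33.0% against 24.9%), with 27.2% against 28.9% and 28.3% against 28.7% in the others. As a ratio of KO to WT share, the 2 rarest subunits gained the most: Relb went from 5.67% and 5.60% to 15.8% and 17.1%, and Rel from 1.49% and 1.50% to 6.36% and 6.73%. Nfkb2 stayed nearest to its WT share, with 16.3% and 15.9% in WT and 19.6% and 19.2% in KO. The ratio of Rel to Rela in CPM per kilobase was 0.0265 in WT under both treatments, against 0.240 and 0.245 in KO. The lengths cover all annotated exons of a gene and isoform use was not measured, so ratios between genes are approximate. These shares restate the levels above on another scale and were not tested again.

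**Figure D2:**
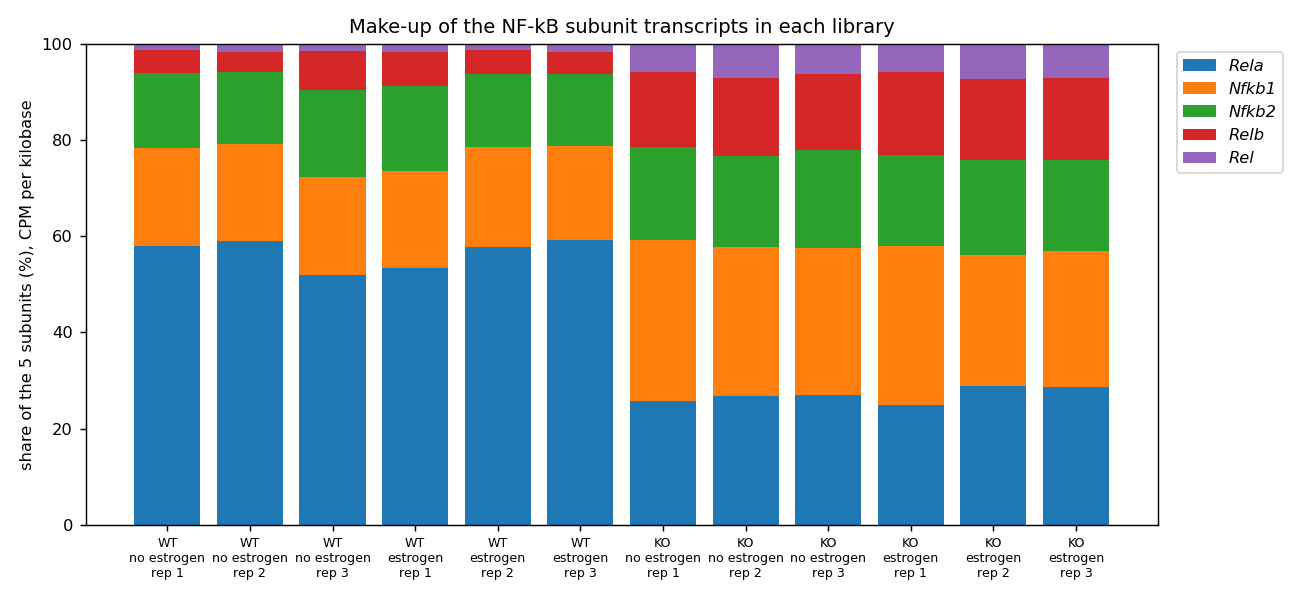
Share (y axis, %) of each NF-kB subunit in the summed CPM per kilobase of the 5 subunits, with 1 stacked bar for each of the 12 libraries. The Rela segment takes 51.9 to 59.3% in the 6 WT libraries and is the largest there; in the KO libraries Rela takes 24.9 to 28.9% and Nfkb1 27.2 to 33.4%, and the Relb and Rel segments are wider.

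Nfkbia encodes IkB-alpha, the inhibitor that binds RelA-containing pairs and is resynthesised when NF-kB is active. It was the most abundant member in every group. Its WT libraries read 119, 122 and 156 CPM without estrogen and 153, 120.5 and 127 CPM with it. Its KO libraries read 274, 264 and 314 CPM without and 309, 305 and 336 CPM with estrogen. The lowest KO library was 1.69 times the highest WT library. On the log2 scale Nfkbia rose by 1.10 ± 0.12 (SE; edgeR adjusted p = 1.13e-05) without and 1.25 ± 0.12 (adjusted p = 4.70e-06) with estrogen. Per kilobase, the ratio of Nfkbia to Rela was 2.38 ± 0.340 (SD, n = 3) and 2.44 ± 0.351 in WT and 7.20 ± 0.701 and 7.85 ± 0.298 in KO.

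The Nfkbia promoter is shown as the textbook NF-kB feedback promoter among the members. The 250 bases before the gene's start lie on the minus strand at chr12:55492648-55492897 (RefSeq, GRCm38.p6), with the consensus match in capitals:
Nfkbia: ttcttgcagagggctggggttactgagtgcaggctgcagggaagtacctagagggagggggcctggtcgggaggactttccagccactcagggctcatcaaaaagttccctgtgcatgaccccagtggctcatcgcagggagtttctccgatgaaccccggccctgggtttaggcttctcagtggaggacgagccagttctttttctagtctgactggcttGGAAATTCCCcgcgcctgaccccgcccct

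Nfkbiz and Bcl3 encode IkB proteins that act in the nucleus as cofactors of p50 and p52. Nfkbiz, needed for late induction of antimicrobial and interleukin genes, averaged 75.0 ± 15.6 CPM (SD, n = 3) and 66.3 ± 11.2 CPM in WT and 183 ± 10.6 and 196 ± 10.5 CPM in KO. It rose by 1.29 ± 0.15 on the log2 scale (SE; edgeR adjusted p = 1.54e-05) without and 1.57 ± 0.15 (adjusted p = 3.73e-06) with estrogen. Bcl3 was rarer and rose more. Its WT libraries had 9.34, 7.10 and 15.4 CPM without and 11.2, 11.6 and 8.12 CPM with estrogen, and its KO libraries 55.0, 45.0 and 57.0 CPM and 56.2, 49.4 and 57.9 CPM. The lowest KO library was 2.92 times the highest WT library, although WT libraries differed among themselves by up to 2.17 times. The log2 fold change of Bcl3 was 2.30 ± 0.25 (edgeR adjusted p = 9.68e-06) and 2.40 ± 0.25 (adjusted p = 7.76e-06). The gene overlaps Gm16174 in the annotation, and the counting did not use strand.

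Tnfaip3 encodes A20, a ubiquitin-editing enzyme that shuts off signals from tumor necrosis factor and Toll-like receptors. It read 10.4, 6.37 and 15.96 CPM in untreated WT and 13.3, 9.40 and 6.98 CPM in treated WT. It read 53.3, 41.1 and 54.1 CPM in untreated KO and 54.2, 48.8 and 54.1 CPM in treated KO. No member varied more within WT, with a highest library 2.51 times the lowest, and the lowest KO library was still 2.58 times the highest WT library. On the log2 scale Tnfaip3 rose by 2.18 ± 0.31 (SE; edgeR adjusted p = 7.71e-05) and 2.40 ± 0.31 (adjusted p = 4.15e-05). Birc3 encodes cIAP2, an ubiquitin ligase of the tumor necrosis factor receptor complex that protects cells from death. It averaged 24.4 ± 4.07 CPM (SD, n = 3) and 22.0 ± 2.54 CPM in WT and 66.2 ± 2.63 and 65.7 ± 3.58 CPM in KO, with log2 fold changes of 1.44 ± 0.12 (edgeR adjusted p = 1.10e-06) and 1.58 ± 0.12 (adjusted p = 6.22e-07). Its neighbour and close relative Birc2 averaged 43.9 ± 4.11 and 42.7 ± 1.54 CPM in WT and 50.2 ± 5.04 and 50.6 ± 6.99 CPM in KO.

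**Figure D3:**
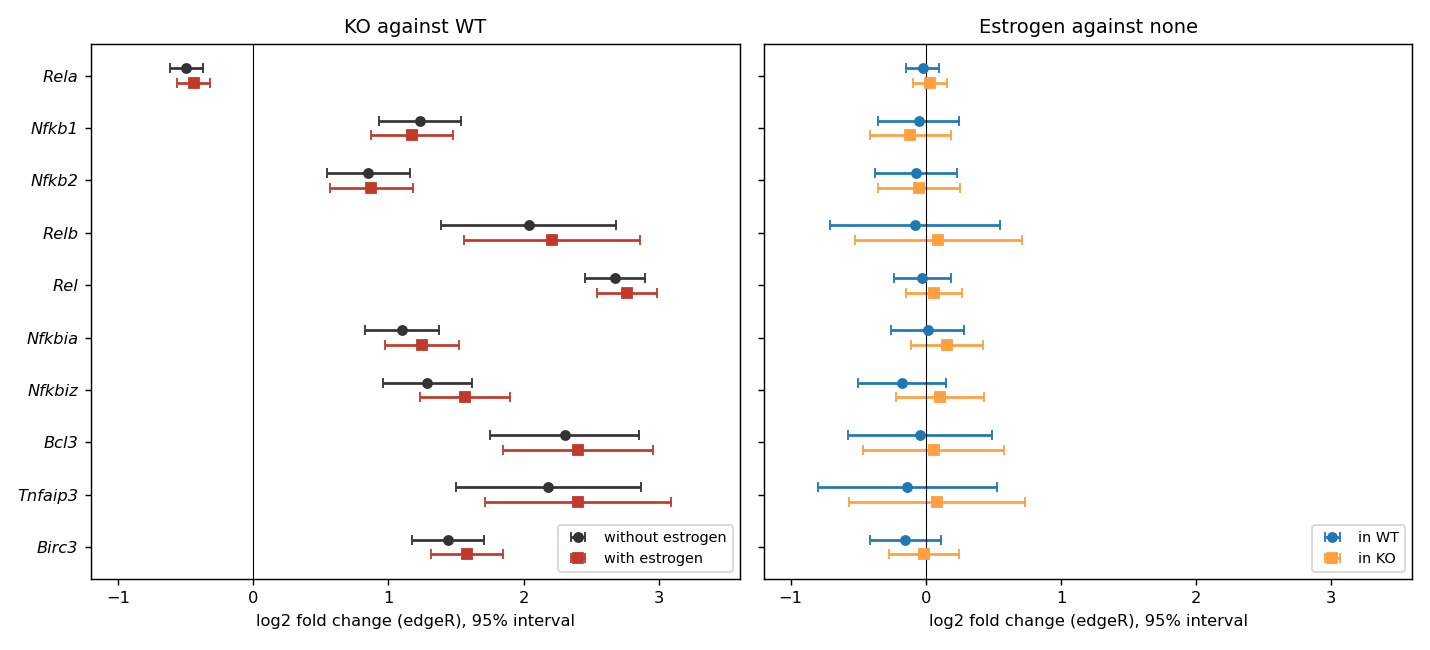
Log2 fold change (x axis) of each member with its 95% interval from edgeR, for KO against WT without and with estrogen (left) and for estrogen against none in WT and KO (right). All intervals on the left lie off 0, with only Rela below it, and all intervals on the right cross 0.

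Within a group, many members were lowest in the same library, while the highest values were shared out more, except in untreated WT. In untreated WT, replicate 3 had the highest value of 9 of the 10 members, all but Rela, and replicate 2 the lowest of 8, where these libraries held the highest value of 35.5% and the lowest value of 33.6% of all tested genes. In treated WT, replicate 1 was highest for 6 members (35.8% of tested genes) and replicate 2 for 4 (29.0%), and replicate 3 was lowest for 7 (31.4%). In KO, replicate 2 was lowest for 9 members in each treatment, all but Rel, against 32.9% of tested genes without and 35.4% with estrogen. The highest values in KO went to replicate 1 for 5 members, replicate 2 for 1 and replicate 3 for 4 without estrogen, and to replicates 1 and 3 for 5 each with it. These places describe single libraries and were not tested.

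The order of the members by CPM per kilobase changed between genotypes. In untreated WT it ran from Nfkbia (83.8 ± 12.9; SD, n = 3) through Rela (35.3 ± 1.05), Nfkbiz (18.1 ± 3.78), Nfkb1 (12.8 ± 1.15) and Nfkb2 (10.3 ± 1.98) to Birc3, Bcl3, Relb, Tnfaip3 and, last, Rel (0.935 ± 0.0930). The ranges of Nfkb1 and Nfkb2 overlapped there, as did those of neighbours from Birc3 to Tnfaip3. Treated WT had the same order except that Bcl3 and Birc3, whose ranges overlapped, changed places, and that Nfkb1 and Nfkb2 did not overlap. In untreated KO, Nfkbia (180.0 ± 16.9) and Nfkbiz (44.2 ± 2.56) led, followed by Nfkb1 (30.0 ± 3.83), Bcl3 (28.3 ± 3.48) and Rela (25.0 ± 1.48), whose neighbouring ranges overlapped. Nfkb2 (18.6 ± 1.68), Birc3 (15.6 ± 0.620), Relb (15.0 ± 0.892), Tnfaip3 (10.8 ± 1.59) and Rel (5.98 ± 0.230) came after, and only Birc3 and Relb overlapped among them. By mean, treated KO put Bcl3 (29.4 ± 2.43) before Nfkb1 (27.7 ± 5.47) and Relb (15.95 ± 1.56) before Birc3 (15.5 ± 0.844), each with overlapping ranges. By mean, Rela thus stood below Nfkbia alone in WT and below Nfkbia, Nfkbiz, Nfkb1 and Bcl3 in KO, and Rel came last in every group.

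No member passed the test for an effect of estrogen. In the edgeR test 0 of the 10 were called in WT, in KO or for the interaction of genotype and estrogen, where 0.00% of tested genes were called in each. At an unadjusted p under 0.05 the member count was also 0 in all 3 comparisons, against 5.36%, 2.50% and 4.41% of tested genes, and DESeq2 called 0 members in each, too. The point estimates farthest from 0 were a log2 fold change of -0.18 for Nfkbiz in WT (95% interval -0.50 to 0.15; -0.32 to -0.02 when single libraries were left out) and 0.16 for Nfkbia in KO (-0.11 to 0.43). The width of the intervals differed by gene. Rela was bounded most tightly, at -0.15 to 0.10 in WT and -0.09 to 0.15 in KO, whereas the interval of Tnfaip3 ran from -0.80 to 0.52 in WT and from -0.57 to 0.73 in KO. The interaction was largest by estimate for Nfkbiz, at 0.28 (-0.18 to 0.74). The KO libraries of the same number deviated together, so the 6 of them were also fitted alone with the number as a block, an alternative chosen after the data were seen. That fit called 486 of 15900 genes (3.06%) but 0 members, with 2 members at an unadjusted p under 0.05, where 15.7% of genes were. They were Nfkbia, at a log2 fold change of 0.16 ± 0.06 (SE; edgeR adjusted p = 0.187), and Nfkb1, at -0.13 ± 0.05 (edgeR adjusted p = 0.273). In all 3 pairs 6 members, Relb, Rel, Nfkbia, Nfkbiz, Tnfaip3 and Bcl3, read higher with estrogen, as did 16.9% of tested genes, and Nfkb1 read lower, as did 19.6%. The comparisons between genotypes use the same libraries as those between treatments, so their values are not independent.

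RefSeq promoter windows, 250 bases before to 50 after the gene's start (build GRCm38.p6), were found for 7 of the 10 members, with 10 windows in all; Nfkb1, Relb and Nfkbiz were not searched. They were searched on both strands for the NF-kB consensus of 10 bases, which opens with GGG and closes with CC on the strand of the match. An exact match stood in the windows of 5 of the 7 members, Nfkbia, Nfkb2, Rel, Tnfaip3 and Bcl3, and in those of 12.3% of the 12871 tested genes with a window. With 1 mismatch allowed inside the motif, 6 of 7 members and 38.8% of tested genes had one. Rela and Birc3 had no exact match. A match describes letters only; binding was not measured.

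For each of the 5 members an exact match is shown with 10 bases on each side and the match in capitals, as examples of what the search found:
Nfkbia: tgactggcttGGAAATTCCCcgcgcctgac
Tnfaip3: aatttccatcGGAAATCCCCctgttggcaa
Rel: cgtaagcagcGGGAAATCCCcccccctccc
Bcl3: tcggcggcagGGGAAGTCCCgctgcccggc
Nfkb2: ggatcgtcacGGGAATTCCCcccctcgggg
Nfkb2, another start: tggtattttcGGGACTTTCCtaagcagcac

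The coordinates given here cover each stretch as shown, flanks included, and the strand named is that of the gene. The Nfkbia match begins 29 bases before the start (chr12:55492657-55492686, minus strand) and the Tnfaip3 match 12 bases before it (chr10:19015403-19015432, minus strand). These Nfkbia and Tnfaip3 matches follow the consensus on the strand opposite to the gene's. The Rel match begins 92 bases before the start (chr11:23771042-23771071, minus strand), and the Bcl3 match 2 bases after it (chr7:19822734-19822763, minus strand). The Nfkb2 match shown first begins 39 bases before a start (chr19:46304688-46304717, plus strand), and the other shown begins 10 bases after another start of the gene (chr19:46305695-46305724, plus strand). Nfkb2 had the most positions with a match, 5 over its windows, of which 2 overlap, while Tnfaip3 had 2 and Rel 2 that overlap. Nfkb2 has 3 windows and Tnfaip3 has 2, where the other 5 members have 1. Whether a match bears on a member's level was not tested.

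Other genes of the pathway moved in both directions. Of 129 genes listed by role, 126 were found by symbol and 118 were tested; in both treatments 54 were higher in KO and 29 lower, and the other 35 did not pass in both, with median log2 fold changes of 0.26 without and 0.30 with estrogen. Of all tested genes 34.1% were higher and 30.8% lower in both, against 45.8% and 24.6% of these 118. The lists at the ends of the pathway, ligands and target genes, held the largest shares of genes that rose. The kinases held more members that fell than rose, an order that turned when libraries were scaled by their size alone. In both treatments that scaling called 13 adaptors, 10 receptors, 23 targets and 8 ligands higher. Lower were 7 adaptors, 4 receptors, 5 targets and 2 ligands. It also called more of all 16465 tested genes higher, 7666 without and 7254 with estrogen, against 6206 and 6043 under the main scaling. Called lower were 4029 and 4233 of them, against 5605 and 5612. These counts over all genes are for each treatment on its own, and those in both treatments under that scaling are not given here.

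Of 11 ligands tested, 8 rose in both treatments, 2 fell and 1 did not pass in both, with medians of 2.23 and 2.65 on the log2 scale. These are 72.7% higher and 18.2% lower, against 34.1% and 30.8% of all tested genes. Tnf, which encodes tumor necrosis factor, was nearly silent in WT at 0.649 ± 0.310 CPM (SD, n = 3) and reached 28.2 ± 2.40 CPM in untreated KO, a log2 fold change of 5.46 (5.07 with estrogen). Tnfsf10, which encodes the death ligand TRAIL, rose from 15.2 ± 1.29 to 89.0 ± 17.0 CPM, and Il17c, an epithelial cytokine, from 0.0456 ± 0.0308 to 1.13 ± 0.0576 CPM. The interleukin-1 genes went the other way. Il1a fell from 602 ± 281 to 51.5 ± 4.25 CPM without and from 428 ± 246 to 70.0 ± 11.6 CPM with estrogen, with log2 fold changes of -3.55 and -2.61 (larger edgeR adjusted p = 4.60e-04). Il1b, low in all libraries, fell from 1.90 ± 1.10 to 0.176 ± 0.0602 CPM without estrogen.

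Receptors were split, with 9 of 20 tested higher in both treatments (45.0%), 6 lower in both (30.0%) and 5 not called in both. The share lower was near the 30.8% of all tested genes, of which 34.1% were higher in both treatments. Il1rl2, the receptor of the interleukin-36 cytokines, went from 0.0606 ± 0.0484 to 17.2 ± 1.42 CPM without estrogen. Cd40, a receptor of the tumor necrosis factor family, rose from 0.293 ± 0.127 to 9.83 ± 1.23 CPM, and Nod2, an intracellular sensor of bacterial cell wall fragments, from 2.11 ± 0.593 to 32.5 ± 6.03 CPM. The 3 lower receptors with the smallest adjusted p were surface receptors. Tlr4, the receptor for bacterial lipopolysaccharide, went from 206 ± 7.69 to 64.4 ± 8.68 CPM, Tlr2 from 33.8 ± 6.52 to 9.16 ± 0.866 CPM, and Il17ra, an interleukin-17 receptor chain, from 31.0 ± 1.27 to 12.3 ± 0.734 CPM.

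The 25 adaptors tested held 8 that rose in both treatments (32.0%), 7 that fell (28.0%) and 10 others, shares near those of all tested genes. Ripk2, the kinase that relays signals of Nod2, rose by 1.80 on the log2 scale without and 1.84 with estrogen, and Irak3, a brake on Toll-like receptor signalling, by 3.56 and 3.06. Traf2, an adaptor of tumor necrosis factor receptors, rose by 0.99 and 0.96. Irak1 and Traf6, which act in turn below the interleukin-1 and Toll-like receptors, fell by 1.83 and 1.75 and by 1.00 and 0.86. Sharpin, a part of the linear ubiquitin ligase, fell by 1.03 and 1.06.

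Of 12 kinases and their partners 3 were higher in both treatments (25%), 6 lower in both (50%) and 3 not called in both. The shares of all tested genes were 34.1% higher and 30.8% lower in both. The medians of the 12 were -0.27 and -0.24. Scaled by library size alone, 4 of the 12 were higher and 3 lower in both treatments, with medians of -0.05 and -0.05. The median of all tested genes moved up by 0.23 and 0.19 with that scaling. Ikbkb, which encodes the IkB kinase that marks IkB-alpha, fell from 95.7 ± 3.31 to 46.7 ± 1.91 CPM (SD, n = 3) without and from 85.6 ± 6.36 to 47.9 ± 2.21 CPM with estrogen. Tab2 and Tab3, which link the kinase TAK1 to ubiquitin chains, fell by 1.34 and 1.07 and by 0.46 and 0.41 on the log2 scale. The kinase genes that rose were Ikbke, from 30.1 ± 5.65 to 81.4 ± 5.80 CPM without estrogen, and Map3k8, from 3.38 ± 0.332 to 15.2 ± 1.74 CPM. The partner gene Tab1 rose by 0.38 and 0.27 on the log2 scale.

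Of 16 inhibitors outside the members 5 were higher in both treatments (31.2%), near the share of all tested genes. Lower in both were 3 (18.8%), and 8 were not called in both. With library size alone 10 were higher and 1 lower in both treatments, and Otulin and Tnip2 were not called in both (larger edgeR adjusted p = 0.102 and 0.341). Counted in each treatment on its own, that scaling called 7666 of 16465 tested genes higher without and 7254 with estrogen, against 6206 and 6043 in the main fit. Nfkbie, which encodes the IkB-epsilon inhibitor, rose by 2.59 on the log2 scale without and 2.78 with estrogen. Zc3h12a, an endonuclease that cuts inflammatory mRNAs, went from 20.7 ± 4.38 to 100.2 ± 15.6 CPM (SD, n = 3) without estrogen. Tnip1 and Tnip3, which bind A20, rose by 0.84 and 0.84 and by 2.71 and 2.65, and Pdlim2, which promotes RelA turnover, by 3.39 and 3.58. The ubiquitin ligase gene Itch fell by 0.61 and 0.56, Otulin, which removes linear ubiquitin, by 0.48 and 0.57, and Tnip2 by 0.49 and 0.28.

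The 34 target genes tested outside the members had medians of 1.48 and 1.78 on the log2 scale. Of them 21 were called higher in both treatments, 5 lower in both and 8 were not called in both. As shares this is 61.8% higher and 14.7% lower, against 34.1% and 30.8% of all tested genes. Irf1, a transcription factor, rose from 17.6 ± 1.93 to 57.3 ± 2.66 CPM (SD, n = 3) without estrogen, next to the chemokine gene Ccl20, with log2 fold changes of 4.82 and 4.73, and the adhesion gene Icam1, with 5.57 and 4.90. Each of the 5 lower targets was abundant in WT. The growth factor gene Csf1 had log2 fold changes of -7.28 and -7.16. Ier3, an early response gene, went from 1144 ± 138 to 237 ± 20.3 CPM, and Ninj1, a membrane protein gene of dying cells, from 96.5 ± 3.73 to 23.2 ± 0.838 CPM. The survival genes Bcl2l1 and Cflar fell by 1.09 and 0.96 and by 0.82 and 0.61 on the log2 scale.

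**Figure D4:**
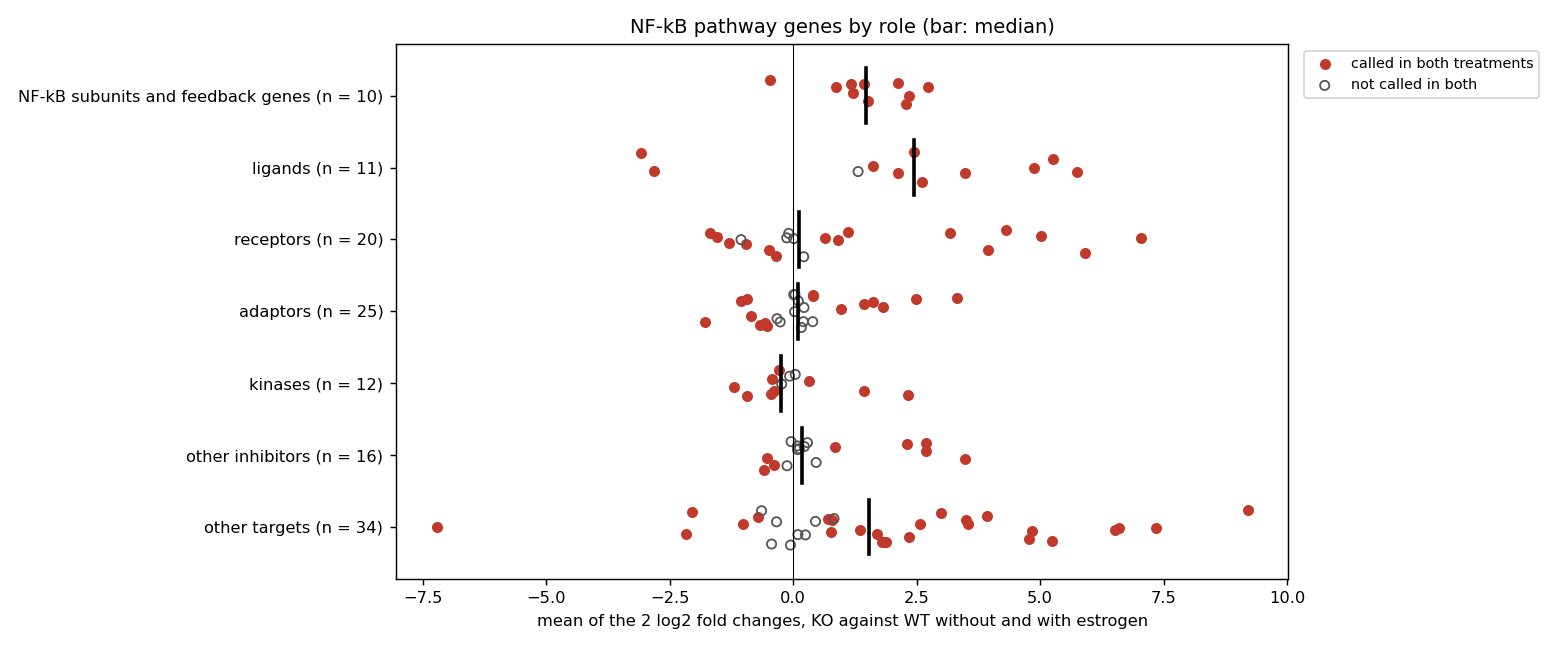
Mean of the 2 log2 fold changes of KO against WT (x axis) for every tested gene of the members and of 6 pathway lists, filled where called in both treatments with the same sign, with bars at the medians. The medians of the members (1.47), ligands (2.46) and other targets (1.53) lie above 1, while receptors (0.11), adaptors (0.11), kinases (-0.25) and other inhibitors (0.18) lie near 0.

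Many genes shared the pattern of each member across the 12 libraries. Pearson's r of log2(CPM + 0.5) was at least 0.9 for 21.4% to 26.8% of the 13014 genes compared, and since the libraries form a cluster for each genotype, r reflects the genotype difference above all. The genes outside the pathway lists with the highest r were Rasgrp1 (0.998) and Klk11 (0.998) for Rel, Gpc1 (0.998) and Igsf9 (0.996) for Relb, Spdef (0.996) and Lgalsl (0.995) for Nfkb1, and Phgdh (0.994) and Lmtk3 (0.994) for Nfkb2. For Rela they were Flna (0.995) and Csnk1g2 (0.995), with means of 1204 and 1246 CPM in WT and 445 and 469 CPM in KO for Flna. Among the feedback genes they were H2-T23 (0.996) and Tgfbr1 (0.994) for Nfkbia, Lipk (0.997) and Rnd3 (0.994) for Nfkbiz, Fgfbp1 (0.995) and Rnd3 (0.995) for Bcl3, Ifitm10 (0.998) and Fgfbp1 (0.997) for Tnfaip3, and Sprr2d (0.997) and Vangl2 (0.997) for Birc3.

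Markers of cell types were also compared between genotypes. In both treatments 34.1% of all tested genes were higher in KO and 30.8% lower. All 6 markers of stratified epithelium tested, keratins and Trp63, were higher in KO, and their summed level ran from 2.74 to 4.53 CPM and from 1.85 to 4.68 CPM in WT, but from 8958 to 15474 CPM and from 6391 to 16670 CPM in KO. Krt14 had 0 reads in treated WT, which allows a level of up to 0.0112 CPM (3 reads over the group; counting error only). Summed epithelial markers stood from 3950 to 4878 CPM in WT and from 3505 to 4411 CPM in KO. Of these 8 markers 1 was called higher and 2 lower in both treatments, and 5 were not called in both. Of the immune markers 7 of 10 were tested, with 3 higher (Itgam, S100a8 and Kit), 3 lower (Ptprc, Csf1r and Cd68) and Adgre1 not called. The summed level of the 10 immune markers ran from 262 to 475 CPM in WT and from 272 to 539 CPM in KO. Ptprc made up little of this sum in either genotype, so the sum does not follow that gene. Ptprc, the pan-leukocyte gene CD45, averaged 6.41 ± 1.14 and 5.46 ± 1.96 CPM (SD, n = 3) in WT and was at 0 reads in untreated KO, which allows up to 0.0116 CPM, and at 0.0121 ± 0.0105 CPM in treated KO. The natural killer cell gene Ncr1 and the endothelial gene Emcn had 0 reads in every group. The 6 endothelial markers summed to 0.705 to 2.91 CPM over all libraries, with Pecam1 higher and Cdh5 lower of 2 tested. The 10 stromal markers summed to 2.58 to 5.31 CPM in WT and 6.65 to 10.99 CPM in KO, with 6 tested and only Vim called higher in both treatments. Without Vim the sum was 3.77 ± 1.33 and 4.02 ± 1.20 CPM in WT and 2.80 ± 1.58 and 2.53 ± 0.970 CPM in KO, and of the other 5 tested, none was called in both treatments. The part of these cells in the members' differences was not tested, and in bulk RNA a change in the number of cells of a type cannot be told apart from a change in RNA per cell.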

How the data were processed

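Per the labels' protocols, RNA of the organoids went into 12 TruSeq mRNA libraries, which were read from both ends. The deposited files hold raw counts, whole reads per gene symbol. Per the file headers, the authors counted with featureCounts 2.0.0 over exons, each mate on its own, without strand and without reads that mapped to several places or genes. The submitters' processing notes name the aligner STAR 2.7.10b with the build GRCm39, featureCounts 2.0.3, Trim Galore 0.6.6 and FastQC 0.11.7; gene positions in that build were not used here. Promoter windows come from RefSeq on GRCm38.p6, and exon lengths from GENCODE M21 on GRCm38.

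Low genes were removed with filterByExpr of edgeR 4.0.16 (R 4.3.3; minimum count 10, minimum total 15), scaled by TMM and fitted by quasi-likelihood with robust estimates over 4 groups. Tests were two-sided, with Benjamini-Hochberg adjustment over 16465 genes and a threshold of 0.05; the method was tested on simulated data. Errors of levels are SD over 3 libraries. Alternatives were DESeq2 1.42.0, other scalings and filters, the compared groups alone, each library left out, and a replicate block.

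The members and gene lists were chosen with earlier results of these data known. Named were all members, Esr1, and per list the 3 genes with the smallest larger adjusted p in each direction, or all where at most 5 were called. For likeness, the 2 genes outside the lists with the highest r at a mean of at least 1 CPM were named. Libraries of the same number deviated together in KO, with correlations of 0.80, 0.71 and 0.60, but not in WT, with -0.31, -0.27 and -0.61. The KO libraries were therefore also fitted alone with the number as a block. Replicate libraries differed beyond counting error, with chi-square values of 48.8 to 321 for each degree of freedom, so none was a repeat deposit. Counting intervals and floors cover counting error only.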

Additional observations from a re-analysis of the deposited data

How the results depend on the processing

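Between genotypes, each of the 10 members kept its direction and its call under all 19 alternatives, in both treatments, with a largest adjusted p of 0.00152 for Nfkb2 without and 0.00171 for Rela with estrogen. With the replicate block 9 members were still called higher and 1 lower in each treatment. Between genotypes this block paired WT and KO libraries of the same number. Those libraries did not deviate together (correlations from -0.02 to 0.07), so the block there had no shared deviation to remove. The block changed no member's call in any comparison. Scaling by library size alone raised the share of higher genes among all called genes from 52.5% to 65.5% without and from 51.8% to 63.1% with estrogen.

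For estrogen, no alternative called a member. The KO libraries fitted alone with the replicate block, added after the data were seen, called 486 genes in place of 0, among them 1 other pathway gene higher (Ier3, 0.32, adjusted p = 0.0219) and 1 lower (Irak3, -0.35, adjusted p = 0.0335). Of the other pathway genes, DESeq2 called 2 higher in WT, Il1r1 (log2 fold change 1.74, adjusted p = 0.0263) and Il1rl2 (2.07, adjusted p = 0.0289), and leaving out single libraries gave 0 to 1, with Icam1 called without replicate 1 of treated WT. Over all genes DESeq2 called 69 in WT, 20 in KO and 27 for the interaction, where edgeR called 0. Estimates that no test called changed sign. With the replicate block the WT estimate of Bcl3 was 0.0177. With library size alone Rela was at -0.0140 in KO, and the interaction of Nfkb2 was at -0.0188. Without 1 library at a time, the WT estimates ran from -0.111 to 0.0186 for Nfkb1, -0.190 to 0.0917 for Nfkb2, -0.341 to 0.380 for Relb, -0.108 to 0.0544 for Rel, -0.0948 to 0.146 for Nfkbia, -0.414 to 0.242 for Tnfaip3 and -0.264 to 0.327 for Bcl3. The KO estimates ran from -0.121 to 0.00852 for Nfkb2, -0.0128 to 0.0722 for Rela, -0.0362 to 0.150 for Tnfaip3, -0.0400 to 0.124 for Bcl3 and -0.0541 to 0.0240 for Birc3. The interaction ran from -0.233 to 0.0470 for Nfkb1, -0.144 to 0.138 for Nfkb2, -0.287 to 0.434 for Relb, -0.160 to 0.495 for Tnfaip3 and -0.269 to 0.322 for Bcl3. The cause of these changes was not tested.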
